A study of Mus musculus with 36 samples.

Results

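Goblet cells are the mucus-secreting cells of the gut epithelium, and 6 genes known from them were followed through mouse gut development: Tff3, Spink4, Guca2a, Muc2, Agr2 and Spdef. They were taken by gene symbol from the 23847 gene entries that each library's file holds (23361 distinct names), and all 6 were found. The set was selected on measured values, namely the lower FPKM of Tff3, Spink4 and Guca2a in libraries labelled Ret null at E14.5, so every value of the E14.5 genotype contrast for these genes is given as a description without a test. The study profiled poly(A) RNA of dissected embryonic gut from C57BL/6J mice, labelled Ret null or wild type and female or male, at 3 embryonic stages (E10.5, then E12.5, then E14.5; E, embryonic day), with 3 libraries in each of the 12 groups, 36 in all. Ret encodes a receptor tyrosine kinase that enteric neural crest cells need to colonise the gut. The sources used here do not say how the null allele was made or whether each library came from its own embryo.

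The secretory lineage of the intestine arises when epithelial cells escape Notch signalling and express Atoh1. Goblet cells then fill with the gel-forming mucin Muc2, which the endoplasmic reticulum protein disulfide isomerase Agr2 helps to fold, and they secrete the trefoil peptide Tff3 and the Kazal-type protease inhibitor Spink4 with it. Guca2a encodes guanylin, a secreted peptide that acts on the epithelial receptor guanylate cyclase C (Gucy2c) and so on salt and water transport. Spdef is an ETS-family transcription factor that promotes goblet and Paneth cell maturation. Several of these genes are also used outside the intestine, Agr2 and Spdef among them in mucous cells of the stomach.

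Several libraries stood apart from their labels or their groups. Ret RNA was at 4.74 to 6.49 FPKM (fragments per kilobase of transcript per unit of sequencing depth) in 7 of the 18 libraries labelled Ret null (E10.5 females 1, 2 and 3, E12.5 male 2, E14.5 females 1 and 3 and male 1), against 0.0111 to 0.0587 FPKM in the other 11 and 2.11 to 13.3 FPKM in the 18 wild-type libraries. Sex-linked RNA did not match the label in E10.5 null-labelled female 3 and male 1 and in E12.5 wild-type females 1 and 2. The E10.5 libraries had the RNA of the other sex. Xist, which females express, was 0.911 FPKM in female 3 and 66.1 FPKM in male 1, and Y-linked Ddx3y was 13.5 and 0 FPKM. Those E12.5 females held both, with Xist at 49.1 and 52.2 FPKM and Ddx3y at 4.91 and 4.98 FPKM. In 4 pairs of libraries the 2 differed by no more than about the sampling noise, and each pair was counted as 1 sample, which left 32 samples. Depth was read from how wide the authors' intervals are: 6.17e+06 to 8.06e+06 fragments in null-labelled and 4.85e+06 to 6.76e+06 in wild-type libraries at E14.5, and 4.85e+06 to 4.09e+07 over all 36. Wild-type libraries of E14.5 also carried other tissues' RNA: female 1 had 1014 FPKM of the liver gene Alb and 0.0858 FPKM of the stomach mesenchyme gene Barx1, and male 2 had 417 FPKM of the lung surfactant gene Sftpc.

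In both genotype groups the medians of the secreted members Tff3, Spink4 and Guca2a were highest at E14.5, and before that stage Tff3 was present at low levels while Spink4 and Guca2a were at or near 0. In the null-labelled libraries the median of Tff3 was 1.96 FPKM at E10.5, 2.57 FPKM at E12.5 and 17.6 FPKM at E14.5. In the wild-type libraries its median was 0.668 FPKM at E10.5, 0.880 FPKM at E12.5 and 78.6 FPKM at E14.5. Tff3 was the most abundant member per transcript length in wild type at E14.5, and there its mean was 55.1 times that at E12.5. Its intervals, however, were centred on a lower value than the FPKM itself in many libraries: the FPKM of Tff3 was 1.34 to 1.66 times the interval's centre at E14.5 and 1.08 to 1.36 times at E12.5, and with centres the ratio of the stage means in wild type was 47.6.

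Spink4 was listed at 0 in 4 of 6 null-labelled and 3 of 6 wild-type libraries at E10.5 and stayed at or below 0.544 FPKM in every E10.5 and E12.5 library. Guca2a was listed at 0 in all 12 libraries at E10.5, and at E12.5 it ranged up to 0.0898 FPKM in null-labelled and 0.144 FPKM in wild-type libraries. At E14.5 both were detected in all 12 libraries. Muc2 followed another course: its FPKM was 0.0866 to 0.310 in the 24 libraries of E10.5 and E12.5, and at E14.5 it was 0.158 to 0.263 in null-labelled and 0.250 to 0.928 in wild-type libraries. Means of Agr2 at E14.5 were 4.82 times those at E12.5 in null-labelled and 7.04 times in wild-type libraries, and those of Spdef 3.09 and 3.96 times. RNA of the gel-forming mucin stayed below 1 FPKM in all 36 libraries, and it passed the filter of no test.

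**Figure D1:**
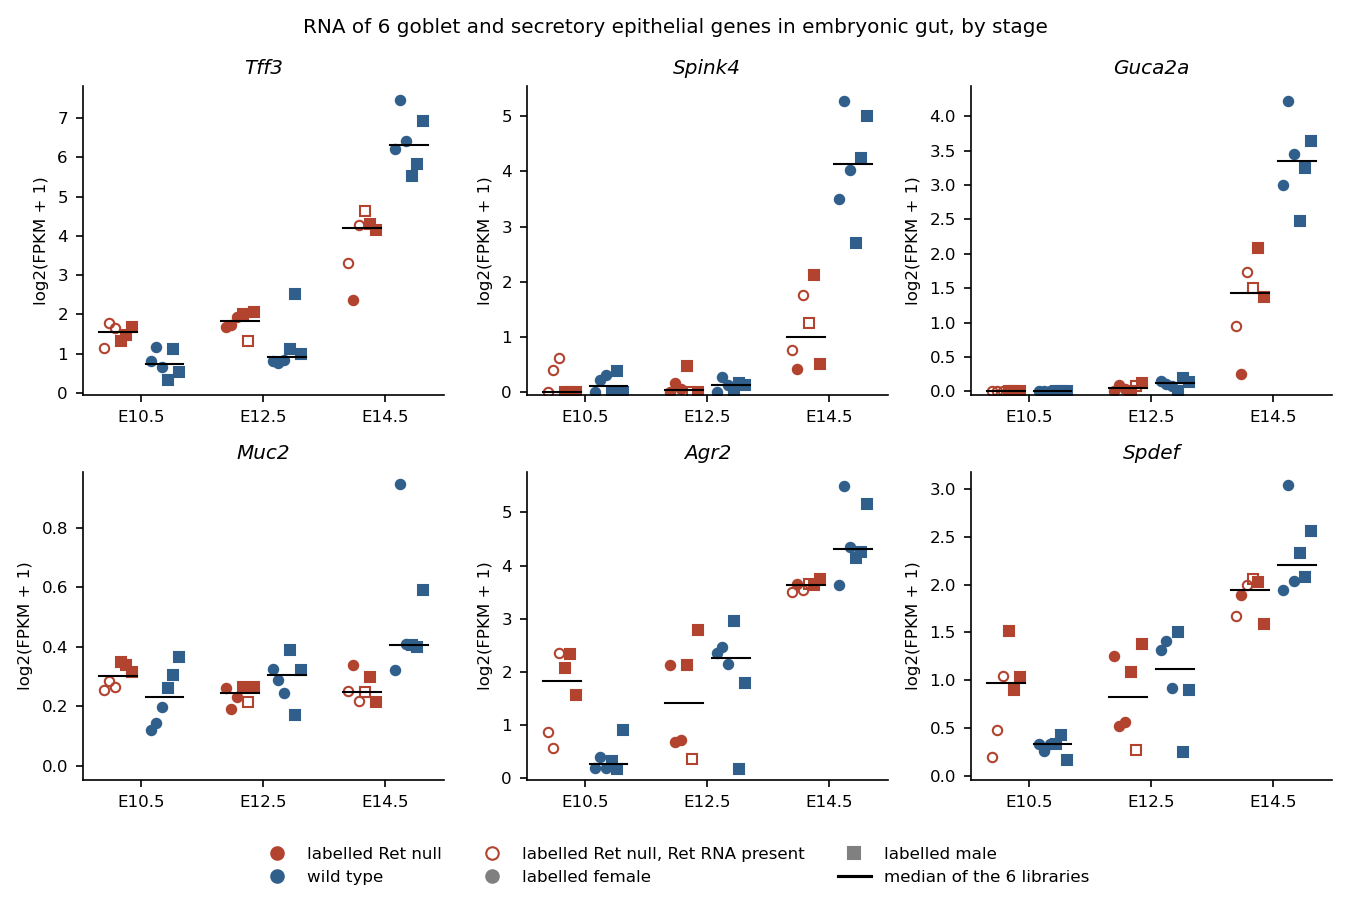
RNA of the 6 genes as log2(FPKM + 1) on the vertical axis, by embryonic stage on the horizontal axis, with 1 point per library (red, labelled Ret null, left; blue, wild type, right; open, null-labelled with Ret RNA; circles female, squares male) and a black line at the median of the 6 libraries. Tff3, Spink4 and Guca2a have their highest medians at E14.5, where the wild-type points all lie above the null-labelled ones, while Agr2 and Spdef are already spread widely at E10.5 and E12.5.

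At E14.5 the secreted members Tff3, Spink4 and Guca2a were lower in every null-labelled library than in any wild-type library. The trefoil peptide gene Tff3 (chr17:31125306-31129611, minus strand, mm10) measured 8.86, 4.13 and 18.3 FPKM in null-labelled females 1, 2 and 3 and 23.9, 18.6 and 16.8 FPKM in null-labelled males 1, 2 and 3. In wild type it measured 73.5, 175 and 83.7 FPKM in females 1, 2 and 3 and 44.7, 55.5 and 120 FPKM in males 1, 2 and 3. The null-labelled mean was 15.1 ± 7.23 FPKM and the wild-type mean 92.0 ± 48.3 FPKM (SD, n = 6 each), a log2 difference of -2.55 on the log2(FPKM + 1) scale. Null-labelled female 2 was the lowest of the 12 libraries and wild-type female 2 the highest.

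Spink4 (chr4:40920056-40931395, plus strand, mm10), the protease inhibitor, measured 0.691, 0.341 and 2.39 FPKM in null-labelled females and 1.37, 3.34 and 0.426 FPKM in null-labelled males. The wild-type females had 10.4, 37.9 and 15.3 FPKM and the wild-type males 5.48, 17.9 and 31.0 FPKM. Means were 1.43 ± 1.21 FPKM in null-labelled and 19.7 ± 12.4 FPKM in wild-type libraries (SD, n = 6 each), and the log2 difference was -2.99. The counts behind the low values were small: in the 3 null-labelled libraries whose interval lay above 0 its width corresponded to 5.33 to 9.32 fragments, against 12.4 to 68.7 fragments in the 6 wild-type libraries.

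Guca2a (chr4:119637732-119639465, plus strand, mm10), which encodes guanylin, measured 0.939, 0.187 and 2.33 FPKM in null-labelled females and 1.83, 3.25 and 1.58 FPKM in null-labelled males. It measured 7.04, 17.7 and 9.90 FPKM in wild-type females and 4.56, 8.50 and 11.4 FPKM in wild-type males. Means were 1.69 ± 1.07 FPKM and 9.86 ± 4.53 FPKM in null-labelled and wild-type libraries (SD, n = 6 each), with a log2 difference of -2.02. Among the 13861 genes that could be tested at E14.5, Spink4 had the 3rd, Tff3 the 6th and Guca2a the 20th most negative log2 difference; the background is that 15.7% of those genes were called changed, 10.9% higher and 4.84% lower in null-labelled libraries, and 1.53% of 13891 genes were lower in every null-labelled than in every wild-type library. These figures stand beside the members as background only, since the same contrast chose them.

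Agr2, Spdef and Muc2, on whose values the choice did not rest, differed by a smaller ratio. Tff3, Spink4 and Guca2a were chosen for their low null-labelled values, so nothing is read from their larger ratios. Agr2 (chr12:35992925-36004081, plus strand, mm10), the disulfide isomerase, lay at 10.3, 11.6 and 10.6 FPKM in null-labelled females and 11.5, 11.4 and 12.4 FPKM in null-labelled males. In wild type it lay at 11.4, 44.4 and 19.5 FPKM in females and 16.7, 18.1 and 34.6 FPKM in males, so the null-labelled libraries spanned a narrow range that wild-type female 1 shared. Spdef (chr17:27714447-27728951, minus strand, mm10), the transcription factor, lay at 2.01 to 3.17 FPKM (median 2.84) in null-labelled and 2.85 to 7.22 FPKM (median 3.62) in wild-type libraries. For Muc2 (chr7:141690340-141754694, plus strand, mm10) 5 of 6 wild-type libraries lay above the highest null-labelled one. The log2 differences were -0.89 for Agr2, -0.46 for Spdef and -0.25 for Muc2. The added 1 FPKM sets the value of Muc2: with 0.1 FPKM added it was -0.77, and the wild-type mean was 2.23 times the null-labelled mean, against 2.14 times for Agr2 and 1.57 times for Spdef.

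Null-labelled libraries with and without Ret RNA overlapped in the secreted members. Tff3 was 4.13 to 18.6 FPKM in the 3 E14.5 null-labelled libraries without Ret RNA and 8.86 to 23.9 FPKM in the 3 with it. Guca2a was 0.187 to 3.25 FPKM in those without and 0.939 to 2.33 FPKM in those with Ret RNA, and Spink4 0.341 to 3.34 and 0.691 to 2.39 FPKM. Without the libraries that hold Ret RNA the log2 differences from wild type were -3.10 for Tff3, -3.26 for Spink4, -2.35 for Guca2a, -0.84 for Agr2, -0.48 for Spdef and -0.22 for Muc2. In females alone the Tff3 difference was -3.38 and in males -1.72. The difference between the sexes is not tested for genes chosen on these values; over all 13861 genes limma called 0% for a genotype effect that depends on sex, and 533 had an unadjusted p under 0.05.

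**Figure D2:**
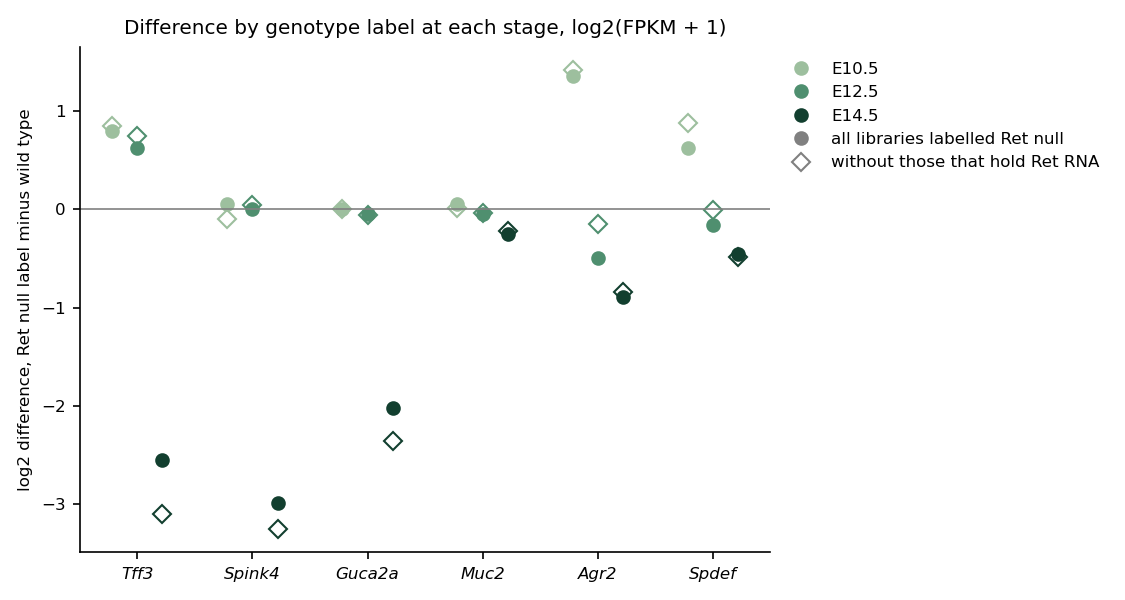
Log2 difference between null-labelled and wild-type libraries on the log2(FPKM + 1) scale (vertical axis) for each of the 6 genes (horizontal axis), with the stages from left to right and light to dark. Filled circles use all null-labelled libraries and open diamonds leave out those that hold Ret RNA. Tff3 is above 0 at E10.5 (0.80) and E12.5 (0.62) and below it at E14.5 (-2.55), and Spink4 and Guca2a differ from 0 by more than 0.11 only at E14.5.

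Pancreas genes moved with the secreted members at E14.5, as did enterocyte and macrophage genes (under other observations), and few general epithelial genes did. Enteric neuron and liver genes were lower as well. All 23 neuron genes tested were lower (median log2 difference -1.04), with 1 called. Without the libraries that hold Ret RNA 17 of the 23 were called lower (median -2.15), against 639 of 13729 over all genes tested. All 12 liver genes tested were lower (median -0.82), with 0 called. The general gut epithelium list had 1 higher and 2 lower calls among 22 genes tested, and its summed FPKM was 858 to 1091 in null-labelled and 897 to 1752 in wild-type libraries. Epcam, the pan-epithelial adhesion gene, was 105 to 140 FPKM in null-labelled and 107 to 206 FPKM in wild-type libraries. Of 24 pancreas genes tested, 14 were called lower, with a median log2 difference of -1.27 against 0.04 over all genes tested; the list's summed FPKM was 223 to 581 in null-labelled and 386 to 3398 in wild-type libraries. Without the libraries that hold Ret RNA 1 of the 24 was called lower (median -1.40), and without null-labelled male 3 it was 4 (median -1.25). Over all genes tested 4.84% were called lower, and in these settings 639 of 13729 and 232 of 13833. As mean log2(FPKM + 1), the pancreas list lay at 2.01 to 2.85 in the null-labelled libraries, and at 2.48, 5.02 and 4.12 in wild-type females 1, 2 and 3 and 2.68, 3.40 and 4.13 in wild-type males 1, 2 and 3. Wild-type females 2 and 3 and male 3, with the highest list levels, were also the highest 3 libraries for Tff3 and Guca2a, while female 1 and male 1 lay within the null-labelled range of the list and above all null-labelled libraries in Tff3. Of 12 stomach genes tested, 2 were called higher in null-labelled libraries, Nepn and Nkx6-3, and 0 lower. Barx1, which was not called, was 36.3 to 51.0 FPKM in null-labelled and 0.0858 to 27.5 FPKM in wild-type libraries. The gastric protease gene Cym was 89.9 to 133 and 2.21 to 262 FPKM. The parts of pancreas and stomach RNA in the members' differences were not tested. In bulk tissue, fewer cells of a type and less RNA per cell cannot be told apart.

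**Figure D3:**
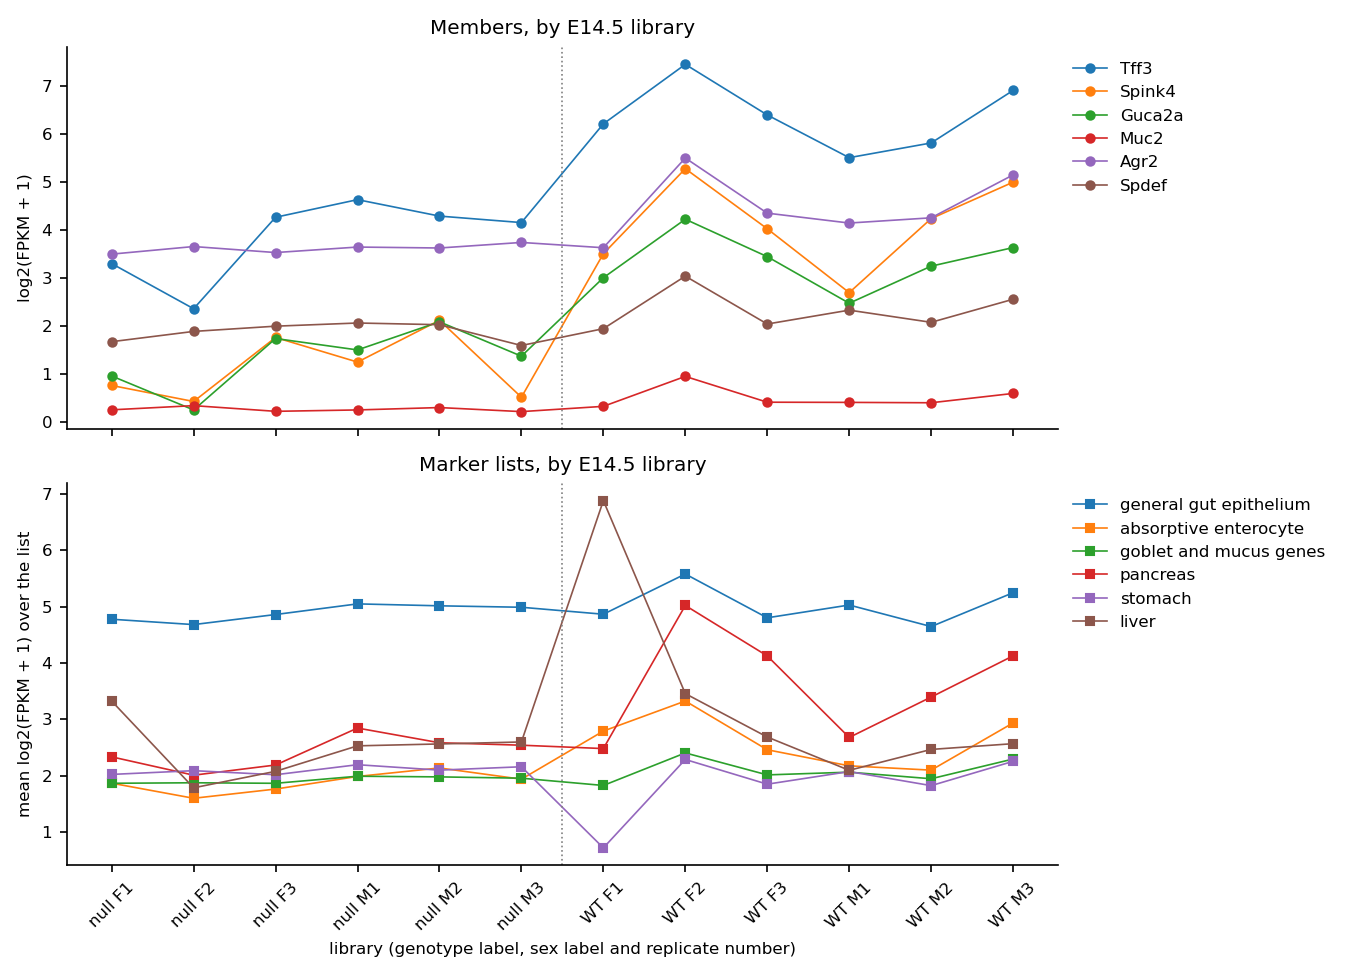
The 12 E14.5 libraries on the horizontal axis (6 labelled Ret null left of the dotted line, 6 wild type right of it; F, female and M, male with the replicate number), with log2(FPKM + 1) of the 6 members above and the mean log2(FPKM + 1) of 6 marker lists below. Tff3, Spink4 and Guca2a step up at the dotted line and peak in wild-type female 2, the pancreas list peaks there too, and wild-type female 1 stands apart with a liver list level of 6.88 and a stomach list level of 0.72.

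Other goblet and mucus genes were measured for comparison, from a list of 48 genes without the members. Of the 34 tested at E14.5, 7 were called lower and 0 higher in null-labelled libraries (4.84% of all genes tested were called lower), with a median log2 difference of -0.16 against 0.04 over all genes tested. Fcgbp, which encodes a protein of the mucus gel, averaged 2.54 ± 1.01 FPKM in null-labelled and 7.32 ± 4.44 FPKM in wild-type libraries (log2 difference -1.14, SE 0.298, adjusted p = 0.0306). The transmembrane mucin gene Muc13 averaged 26.5 ± 6.85 FPKM in null-labelled and 49.1 ± 19.5 FPKM in wild-type libraries (adjusted p = 0.0350), and Nlrp6, an inflammasome sensor linked to goblet cell secretion, 1.40 ± 0.648 and 4.57 ± 2.11 FPKM (adjusted p = 0.0178). Gfi1, a repressor that acts in the secretory lineage after Atoh1, averaged 0.334 ± 0.0820 FPKM in null-labelled and 0.984 ± 0.396 FPKM in wild-type libraries (adjusted p = 0.0189), and the potassium channel gene Kcnk6 1.99 ± 0.248 and 2.79 ± 0.266 FPKM (adjusted p = 0.0221). Gfi1, 1 of the 7 called, reached 1 FPKM only in wild-type females 2 and 3 and male 3. Because it entered the test only through the group where it was high, nothing is read from its call. Without the libraries that hold Ret RNA 1 of the 34 was called lower (list median -0.20). Without null-labelled male 3 it was 2 (list median -0.15). Over all genes tested, 639 of 13729 and 232 of 13833 were called lower in these settings (8.61% in either direction in the first). Atoh1 itself fell under the filter on low values: it was 0.289 to 0.511 FPKM in null-labelled and 0.559 to 1.61 FPKM in wild-type libraries, with no test.

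The guanylin receptor gene did not pass the test at E14.5. Gucy2c averaged 13.2 ± 3.41 FPKM in null-labelled and 15.4 ± 5.34 FPKM in wild-type libraries, and of 5 genes of the guanylin list tested 1 was called, the phosphodiesterase gene Pde5a, which was higher in null-labelled libraries, though not called without those that hold Ret RNA (27.5 ± 2.35 and 19.4 ± 4.65 FPKM, adjusted p = 0.0133). Guca2b, which encodes the related ligand uroguanylin, was 0.164 to 2.71 FPKM in null-labelled and 0.417 to 1.66 FPKM in wild-type libraries. Among the genes of Notch signalling and secretory lineage choice, 1 of 21 was called at E14.5, Gfi1 (above), which entered only through the group where it was high.

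The E10.5 contrast was not used to choose the genes, and there Tff3 was called higher in null-labelled libraries. The filter (1 FPKM or more in at least 3 samples) let in Tff3, Agr2 and Spdef through their null-labelled samples. Neither their filtered calls nor the number of them is support. With no filter the limma adjusted p of Tff3 was 0.0249, in a fit that called 437 of 19934 genes higher and 188 lower. With the filter, 5.61% of all 13165 genes tested were called higher, 2.67% lower and 8.29% in either direction. Tff3 measured 1.23, 2.45 and 2.13 FPKM in null-labelled females 1, 2 and 3 and 1.52, 1.78 and 2.22 FPKM in males 1, 2 and 3. The wild-type libraries had 0.758, 1.24 and 0.577 FPKM in females 1, 2 and 3 and 0.249, 1.19 and 0.441 FPKM in males 3, 4 and 5. With close pairs counted once, the means were 1.90 ± 0.281 FPKM (SD, n = 5) in null-labelled and 0.685 ± 0.239 FPKM (SD, n = 4) in wild-type samples, which did not overlap (log2 difference 0.80, SE 0.126, limma adjusted p = 0.0143). Over all genes compared, 5.24% were higher in every null-labelled than in every wild-type sample.

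The E10.5 values of Tff3 rest on few fragments, 6.00 to 9.59 in the null-labelled libraries by the width of their intervals. The adjusted p was 0.0941 without the libraries that hold Ret RNA (males only then remain among the null-labelled ones, and 0.522% of genes were called), 0.0646 without those whose sex-linked RNA goes against the label, and 0.0623 without wild-type male 5, with log2 differences of 0.84, 0.80 and 0.73. The files of the E10.5 null-labelled females also differed in form, in that 0% of FPKM values fell outside the interval given for them, while the share was 3.66 to 16.8% among the remaining 33 libraries; with centres in place of FPKM throughout, the difference was 0.80 (adjusted p = 0.00915). Whether the genotype difference of Tff3 changed between E10.5 and E14.5 was not tested, because the E14.5 values chose the gene.

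Agr2 measured 0.810, 0.482 and 4.11 FPKM in E10.5 null-labelled females and 3.22, 4.03 and 1.95 FPKM in null-labelled males. It measured 0.138, 0.304 and 0.142 FPKM in wild-type females and 0.244, 0.118 and 0.871 FPKM in wild-type males, so that female 3 and the males set the null-labelled mean. The log2 difference was 1.36 (SE 0.334, adjusted p = 0.0468), with an adjusted p of 0.0856 when no filter was used and of 0.00728 to 0.130 over 16 alternative settings, 10 of which lost the call. Because Agr2 entered only through the group where it was high, nothing is read from that call. Spdef was 0.146 to 1.85 FPKM in null-labelled and 0.117 to 0.339 FPKM in wild-type libraries, and its difference of 0.63 (SE 0.189) had an adjusted p of 0.0777.

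Epithelial and muscle genes moved with Tff3 at E10.5, and stomach genes were counted beside them. The log2 differences of Spink4, Guca2a and Muc2 at E10.5 were 0.05, 0 and 0.06. Of 20 general epithelial genes tested 13 were called higher and 0 lower in null-labelled libraries (median log2 difference 0.65, against 0.01 over all genes tested), and Epcam was 31.4 to 51.8 FPKM in null-labelled and 17.3 to 21.8 FPKM in wild-type libraries. Of 7 stomach genes 3 were called higher (median 1.31), and of 11 smooth muscle genes 9 (median 1.499). Over all genes tested 5.61% were called higher. The stomach genes Cym and Nkx6-3 reached 1 FPKM only in null-labelled libraries, where they were high, so nothing is read from the stomach counts and median. In the goblet and mucus list 4 of 22 were called higher: Foxa1, Foxa2 and Klf4, transcription factors that also act in goblet cells, and the epithelial protease gene Tmprss2. Foxa1 averaged 11.1 ± 2.91 FPKM in null-labelled and 4.29 ± 1.20 FPKM in wild-type samples (SD, n = 5 and 4; adjusted p = 0.0125). Gucy2c, the guanylin receptor, was called higher too, at 3.03 ± 0.408 FPKM in null-labelled and 1.24 ± 0.710 FPKM in wild-type samples (adjusted p = 0.00558), while its ligand gene Guca2a was at 0. Without the libraries that hold Ret RNA the higher calls were 6 of 20 epithelial, 5 of 7 stomach, 2 of 11 smooth muscle, 3 of 22 goblet and 0 of 4 guanylin genes. Without wild-type male 5 they were 6 of 20, 1 of 6, 6 of 11, 1 of 22 and 1 of 3. Over all genes tested the higher calls were 59 of 13037 and 147 of 13057 in these settings. The part of these lists in the differences of Tff3, Agr2 and Spdef was not tested.

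At E12.5 no member passed the test between the genotype labels, in a comparison with 1 call among 13182 genes (0.00759%; 1115 genes at an unadjusted p under 0.05). Tff3 was 1.49 to 3.20 FPKM (median 2.57) in null-labelled libraries and 0.698 to 4.71 FPKM (median 0.880) in wild-type libraries. Wild-type male 2, at 4.71 FPKM, was above every null-labelled library, and the other 5 wild-type libraries, at 0.698 to 1.16 FPKM, were below all of them. The log2 difference was 0.62 (SE 0.273, adjusted p = 0.585), and 0.86 (SE 0.149, adjusted p = 0.282) without wild-type male 2. That library also stood apart in other genes, with 0.229 FPKM of Barx1, 21.4 FPKM of the intestinal transcription factor gene Cdx2 and 9.998 FPKM of Gucy2c, against 1.103 to 164 FPKM of Barx1, 2.87 to 11.5 FPKM of Cdx2 and 0.980 to 5.86 FPKM of Gucy2c in the other 11 libraries of E12.5.

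Agr2 and Spdef went together across the E12.5 libraries, and 2 stomach genes were low in the same libraries under both genotype labels. Agr2 measured 3.34, 0.598 and 0.644 FPKM in null-labelled females and 3.34, 0.274 and 5.88 FPKM in null-labelled males, against 4.12, 4.54 and 3.45 FPKM in wild-type females and 6.79, 0.120 and 2.44 FPKM in wild-type males. The low values were those of null-labelled females 2 and 3, null-labelled male 2 and wild-type male 2. Spdef was lowest in the same 4 libraries, at 0.436, 0.474, 0.207 and 0.183 FPKM, and lay between 0.855 and 1.83 FPKM in the other 8. Muc2 was lowest there too, at 0.142, 0.173, 0.159 and 0.124 FPKM, against 0.185 to 0.310 FPKM in the other 8. Barx1, a transcription factor gene of stomach mesenchyme, was 1.103, 1.12, 4.70 and 0.229 FPKM in those 4 libraries, and Cym, the gastric protease chymosin, was 0.379, 0.279, 0.227 and 0.297 FPKM. In the other 8 libraries Barx1 was 75.1 to 164 FPKM and Cym 8.99 to 21.0 FPKM. At E10.5 the 4 libraries with the most Barx1, null-labelled female 3 and males 1 to 3 (68.7 to 110 FPKM), were the 4 highest for Agr2 and for Spdef. All 4 carry the null label, so label and Barx1 level cannot be told apart there. Elsewhere at E10.5 the 2 genes did not go together. Wild-type females 1 and 2 had 38.3 FPKM of Barx1 but 0.138 and 0.304 FPKM of Agr2. Wild-type male 5 had 0.651 FPKM of Barx1, the least, and 0.871 FPKM of Agr2. The sources used here do not say how much stomach each dissection held, and its part in the Agr2 and Spdef values was not tested.

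**Figure D4:**
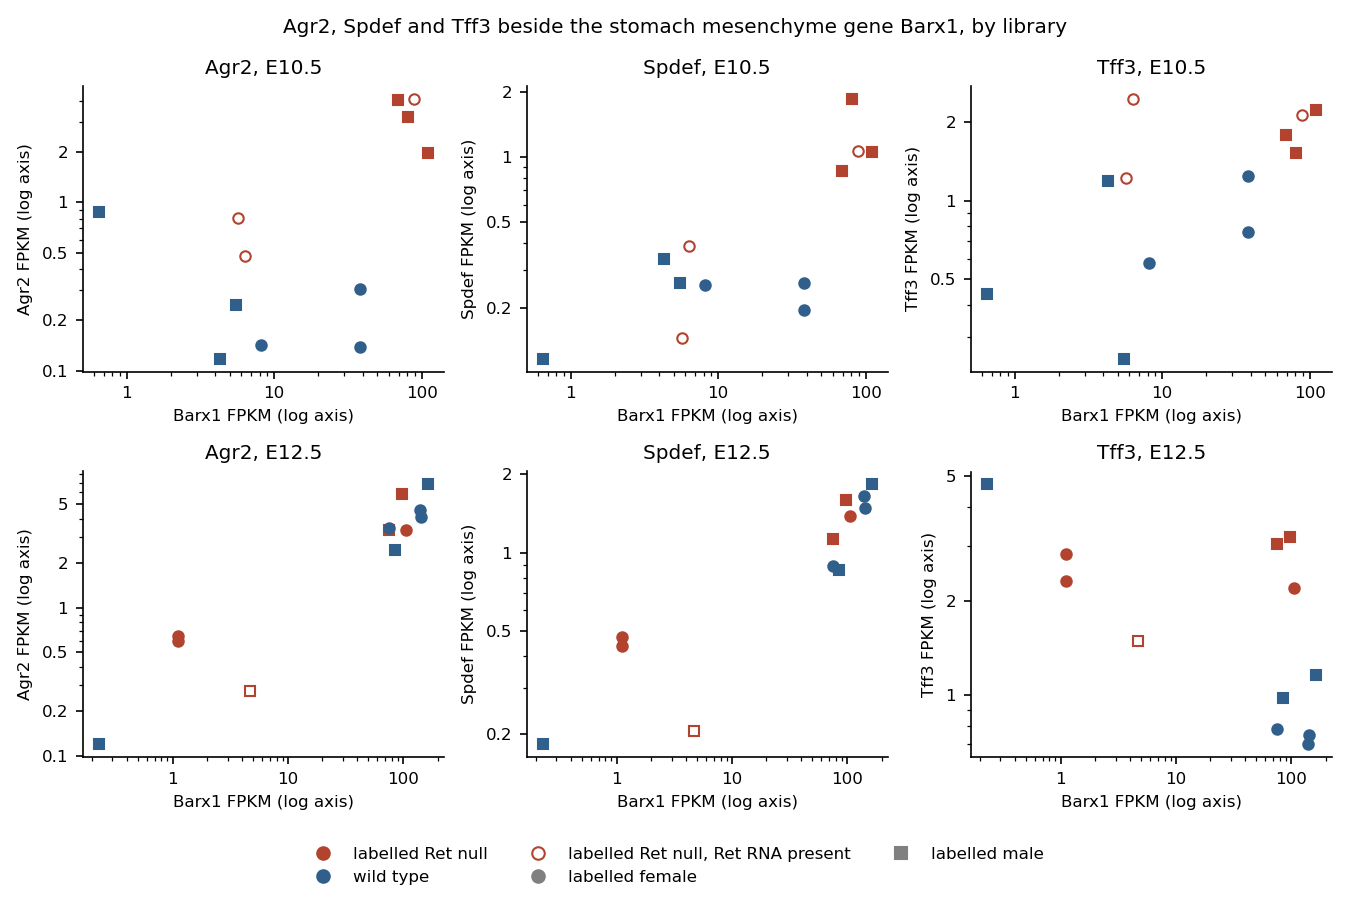
Agr2, Spdef and Tff3 FPKM (vertical log axes) against Barx1 FPKM (horizontal log axes) in the 12 libraries of E10.5 (top) and of E12.5 (bottom), with null-labelled libraries red (open where Ret RNA is present), wild type blue, circles female and squares male. Agr2 and Spdef are highest in the libraries with the most Barx1 at both stages, but at E10.5 these libraries are all null-labelled. The highest Tff3 value at E12.5, 4.71 FPKM, is in the library with the least Barx1.

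The log2 differences at E12.5 were -0.50 for Agr2 (SE 0.579, adjusted p = 0.788) and -0.16 for Spdef (SE 0.280, adjusted p = 0.862). Between E12.5 and E10.5 in wild type none of Agr2, Spdef and Tff3 was called, where 4.57% of 14321 genes were. Agr2 averaged 3.43 ± 2.45 FPKM at E12.5 (SD, n = 5) and 0.354 ± 0.346 FPKM at E10.5 (SD, n = 4), a log2 difference of 1.55 (SE 0.505, adjusted p = 0.0818), and 1.92 (adjusted p = 0.0208) without wild-type male 2 of E12.5. Spdef differed by 0.72 (SE 0.265, adjusted p = 0.131) and Tff3 by 0.43 (SE 0.345, adjusted p = 0.556). Spink4 and Guca2a, below 1 FPKM in all E10.5 and E12.5 libraries, could not show a change here and are not counted. The change of the genotype difference from E10.5 to E12.5 passed the test for none of these 3 either, where 1.34% of genes did; it was -1.86 for Agr2 (SE 0.681, adjusted p = 0.185), -0.79 for Spdef (SE 0.357, adjusted p = 0.302) and -0.18 for Tff3 (SE 0.465, adjusted p = 0.906).

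Genes were also ranked by how closely they followed the members, as a description without a test, since libraries share stage, depth and tissue content. Over the 36 libraries and 14436 genes, the 8 genes closest to the mean of the 6 scaled members had Pearson r between 0.957 and 0.962: Alpi, intestinal alkaline phosphatase; Reg1; Ms4a18; Mamdc4; Hepacam2; Apoa4, an enterocyte apolipoprotein; Car9, a carbonic anhydrase; and Cpb1, a pancreatic carboxypeptidase. Over the 12 E14.5 libraries and 13920 genes, the 8 closest to the mean of Tff3, Spink4 and Guca2a had r between 0.943 and 0.978: Sct, the hormone secretin; Spink3, a pancreatic trypsin inhibitor; Ccl9; Ms4a18; Ugt1a7c; Ckmt1, a mitochondrial creatine kinase; Defa24, a Paneth cell defensin; and Cebpa. Sct was 2.40 to 9.51 FPKM in null-labelled and 19.7 to 52.8 FPKM in wild-type libraries. Tff3, Spink4 and Guca2a were chosen for their genotype difference in these 12 libraries. Genes with a like difference therefore rank high here, and nothing is read from the E14.5 ranking. Ms4a18 was in both sets.

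Sequences just upstream are shown for Agr2 and Spdef, which went together across libraries, and for Guca2a. Pearson r of Agr2 with Spdef was 0.98 at E12.5 and 0.88 at E14.5. Muc2 went with them too, with r of 0.81 (Agr2) and 0.80 (Spdef) at E12.5 and 0.94 and 0.93 at E14.5. Guca2a followed Tff3 at E14.5 (r = 0.98), in the contrast that chose both. At E12.5, where Guca2a was near 0, it did not (r = 0.01). RefSeq windows of build GRCm38.p6 were matched for 4 of the 6 members, Guca2a, Muc2, Agr2 and Spdef; Tff3 and Spink4 are named only. The 250 bases before the starts of Agr2, Spdef and Guca2a are given 5′ to 3′ on the gene's strand. The Muc2 window was searched in the same way but is not printed. Capitals mark matches, on either strand, to 6 searched motifs, none of which overlap here. These were the CDX motif with the letters TTTATG, the FOXA motif with TGTTTAC, the GATA-factor motif with AGATAA, an E-box with CAGCTG, an ETS-family motif with CCGGAT and the HNF4 motif with CAAAGTC.
Agr2 upstream bases, chr12:35992675-35992924, plus strand: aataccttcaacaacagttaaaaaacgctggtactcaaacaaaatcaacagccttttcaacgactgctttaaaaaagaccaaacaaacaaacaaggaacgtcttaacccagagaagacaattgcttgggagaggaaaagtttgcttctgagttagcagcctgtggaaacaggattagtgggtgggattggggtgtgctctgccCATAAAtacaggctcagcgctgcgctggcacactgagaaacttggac
Spdef upstream bases, chr17:27728952-27729201, minus strand: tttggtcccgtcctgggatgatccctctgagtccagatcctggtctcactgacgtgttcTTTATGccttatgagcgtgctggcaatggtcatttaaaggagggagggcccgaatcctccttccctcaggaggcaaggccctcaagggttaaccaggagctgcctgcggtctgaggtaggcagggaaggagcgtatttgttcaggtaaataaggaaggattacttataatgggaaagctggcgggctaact
Guca2a upstream bases, chr4:119637482-119637731, plus strand: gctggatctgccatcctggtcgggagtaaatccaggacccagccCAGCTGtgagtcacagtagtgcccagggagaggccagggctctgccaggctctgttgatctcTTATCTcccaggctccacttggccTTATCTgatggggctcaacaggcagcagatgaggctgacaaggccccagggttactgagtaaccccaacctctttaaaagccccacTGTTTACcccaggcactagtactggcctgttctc
Agr2 and Spdef each held 1 CDX match and no other, and 10.8% of all 32851 windows hold that motif. Guca2a held 1 FOXA match (in 3.17% of windows), 2 GATA matches (9.99%) and 1 E-box (13.0%). The Muc2 window held 2 GATA matches and 1 E-box. The ETS motif (4.94% of windows) and the HNF4 motif (3.84%) were found in none of the 4. A match describes the letters of the window and says nothing of binding.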

How the data were processed

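Poly(A) RNA was prepared with a TruSeq kit and read as paired ends on the HiSeq 2000, per the labels' protocols; Picard, TopHat2, Cufflinks, Cuffdiff and mm10 are named in the submitters' processing notes. The authors deposited FPKM per gene with an interval, per the file headers. Starts were read as counted from 0 and are given from 1. Fragment numbers were derived from interval widths and cover counting error only. Library pairs whose spread was at most 1.1 times that noise, with at most 1% of genes beyond 3 SD, were averaged. limma 3.58.1 in R 4.3.3 was run on log2(FPKM + 1), for genes that reached 1 FPKM in 3 or more fitted samples and had an OK status in all its libraries, and Benjamini-Hochberg adjustment over all genes (threshold 0.05, two-sided). Fold changes on this scale understate those of low genes. Each stage was fitted with 4 group means averaged over sexes; stage comparisons used 1 fit of all groups. The fits were tested on simulated data. Nothing says that libraries of a group are separate embryos, so p-values reflect only library-to-library spread, possibly technical.

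The members and lists were chosen with earlier results of these data known. Named genes were the members, Ret, up to 5 called genes per list and comparison with the smallest p (given where they bear on the members), and 8 genes per likeness ranking. Atoh1, Gucy2c, Guca2b, Epcam, Barx1, Cym, Cdx2, Alb and Sftpc were added after their values were seen. List counts without libraries, the interval-centre setting and the stage fits on only the groups compared were added after seeing the data. Python 3.11.15, pandas 2.3.3 and matplotlib 3.10.9 served for tables and figures.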

Additional observations from a re-analysis of the deposited data

Results flagged for a closer look

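Of 34 sets of 4 to 6 samples (1 member in 1 group), 5 held a sample far from the others by Dixon's criterion, which chance gives in about 1 in 20. Close pairs of libraries enter as their mean: E12.5 wild-type females 1 and 2, E10.5 null-labelled females 1 and 2, and at E10.5 wild-type females 1 and 2 and males 3 and 4. Tff3 in E12.5 wild-type male 2 was 4.71 FPKM, against 0.722 to 1.16 FPKM in the other 4 samples of that group. Agr2 in E10.5 wild-type male 5 was 0.871 FPKM, against 0.142 to 0.221 FPKM in the other 3. The others concern Spink4 at levels of few or no fragments. It was 0.544 FPKM in E10.5 null-labelled female 3, against 0 to 0.157 FPKM in the others (0.157 is the mean of females 1 and 2, at 0 and 0.314 FPKM), and 0.392 FPKM in E12.5 null-labelled male 1, against 0 to 0.126 FPKM in the others. It was listed at 0 in E12.5 wild-type male 1, against 0.0905 to 0.122 FPKM in the others; females 1 and 2, at 0 and 0.206 FPKM, enter as their mean.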

How the results depend on the processing

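Of 96 recomputed E14.5 differences of the 6 members, all kept their sign, and 94 moved by less than 1 SD between replicates; with a pseudocount of 0.1, Guca2a stood at -2.70 and Muc2 at -0.77. Leaving out 1 library at a time gave -2.79 to -2.31 for Tff3, -3.31 to -2.73 for Spink4 and -2.21 to -1.84 for Guca2a. With interval centres they stood at -2.53, -2.63 and -1.86.

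Of 238 recomputed member tests, 219 kept their side of the threshold and direction. At E10.5 the Agr2 call was lost with no filter (adjusted p = 0.0856), without the libraries that hold Ret RNA (0.0837), with the replicate block and every library counted (0.0695), and without null-labelled male 1, 2 or 3, wild-type females 1 and 2, female 3, males 3 and 4, or male 5 (0.0687 to 0.130). Spdef was called at E10.5 with every library counted (0.0196). For E12.5 against E10.5 in wild type, Agr2 was called with every library counted (0.00857) and with the replicate block (0.0465), and Spdef with every library counted (0.0216). The genotype-by-stage interaction of Tff3 (-0.18) ranged from -0.31 to 0.07 with 1 sample left out, 0.07 being the value without E12.5 wild-type male 2, and stood at -0.39 with a pseudocount of 0.1. It was not called in any setting; the causes were not tested.

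Counts over all genes moved more. At E10.5 (1091 calls) there were 625 with no filter, 3774 with every library counted, 68 without the libraries that hold Ret RNA, 184 without those whose sex-linked RNA goes against the label, and 179 (without wild-type male 5) to 1268 with 1 sample left out. At E12.5 (1 call) there were 0 with every library counted, 0 with the replicate block as well, 34 without the libraries that hold Ret RNA, 2 without those of unmatched sex-linked RNA, and 0 to 34 (without null-labelled male 2) with 1 sample left out. At E14.5 (2175) there were 1122 with the replicate block, 1182 without the libraries that hold Ret RNA and 669 (without null-labelled male 3) to 3554 (without null-labelled female 3) with 1 left out. The genotype-by-sex interaction (0) had 1 call with a pseudocount of 0.1, 1 with interval centres and 0 to 1 with 1 left out. The wild-type stage comparison (654) had 1085 with upper-quartile scaling, 1829 with every library counted, 264 without the libraries whose sex-linked RNA goes against the label and 298 (without E12.5 female 3) to 735 with 1 left out. The genotype-by-stage interaction (192) had 769 with every library counted, 1 without the libraries that hold Ret RNA, 5 without those of unmatched sex-linked RNA, 301 with only the groups compared, and 51 (without E10.5 null-labelled female 3) to 417 (without E12.5 null-labelled female 1) with 1 left out. Upper-quartile scaling changed the split of higher and lower calls to 567 and 822 at E10.5 (739 and 352 before), 896 and 755 at E14.5 (1504 and 671), 857 and 228 in the stage comparison (394 and 260) and 115 and 95 in the genotype-by-stage interaction (78 and 114). The deviations of same-numbered libraries correlated above 0.1 in 3 of 12 pairs at E10.5, 6 of 18 at E12.5 and 5 of 18 at E14.5. Libraries with different numbers were not compared, so this does not settle whether replicate numbers pair libraries.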

Other observations

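Other epithelial genes were lower in null-labelled libraries at E14.5 beside the secreted members. Of 18 absorptive enterocyte genes tested, 11 were called lower and 0 higher, with a median log2 difference of -0.80 (4.84% of all genes tested were called lower). Fabp1, the fatty acid carrier of enterocytes, averaged 9.35 ± 3.29 FPKM in null-labelled and 43.7 ± 29.3 FPKM in wild-type libraries (SD, n = 6 each; adjusted p = 0.0125). Of 6 Paneth and tuft cell genes tested, 2 were called lower: Lyz1, Paneth cell lysozyme, averaged 0.765 ± 0.275 FPKM in null-labelled and 2.596 ± 0.802 FPKM in wild-type libraries (adjusted p = 0.00778), and the defensin gene Defa24 0.326 ± 0.432 and 3.50 ± 2.01 FPKM (adjusted p = 0.0116). Both null-labelled means lay under the 1 FPKM of the filter and both wild-type means above it, so nothing is read from these calls. Without the libraries that hold Ret RNA 3 of the 18 enterocyte genes were called lower (median -0.91), and 6 without null-labelled male 3. The Paneth and tuft count was 2 in both. Over all genes tested, 639 of 13729 and 232 of 13833 were called lower in these settings. Of 12 macrophage genes tested, 7 were called lower (6 without the libraries that hold Ret RNA), and the list's summed FPKM was 77.6 to 119 in null-labelled and 118 to 164 in wild-type libraries.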
